A study of Homo sapiens with 4 samples.

Results

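CDC42, PAK3, ACTR2 and ACTR3 were 4 of the 184 target genes measured by quantitative real-time RT-PCR in HEK293 cells, an established human embryonic kidney line. They were taken by gene symbol from the target assays of the panel, which was built around integrin-mediated adhesion, the cytoskeleton and cell motility. Per the study's methods, genes entered the panel either for a change in array or protein measurements or from the literature on these pathways, so shares of the panel called are not shares of a neutral set of genes. The comparison asks which of these genes differ in expression when the tyrosine phosphatase PRL-1 is overexpressed. HEK293-PRL-1 cells stably carry PRL-1 (the gene PTP4A1) in pcDNA4, and HEK293-vector cells stably carry empty pcDNA4. Both were grown in the same medium with fetal bovine serum, penicillin and streptomycin. Total RNA of 2 cultures per group was DNase-treated, reverse transcribed and amplified on 2 plates of 96 wells, giving 192 wells per sample. The samples of each group are called a and b here, after letters in the table that were not tied to the labelled replicate numbers. Whether each line is 1 clone is not given in the sources used here.

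The proteins belong to pathways that lead from a switch at the membrane to actin filaments. CDC42 is a small GTPase that, in its GTP-bound state, directs filopodia and cell polarity. PAK3 belongs to the group I p21-activated kinases, which are activated by binding CDC42 or Rac, and it is best known from neurons. CDC42 also activates N-WASP, which stimulates the Arp2/3 complex, and ACTR2 and ACTR3 encode Arp2 and Arp3, the actin-related subunits that form the start of a new filament branch on the side of an existing one. A threshold cycle (Ct) records when the fluorescence of a TaqMan probe passes a set level, so that a Ct lower by 1 cycle stands for a doubling of template at full amplification efficiency. Relative levels are given as ΔCt, the Ct of an assay minus the mean Ct of the 18S wells of the same sample, and log2 fold changes subtract the mean ΔCt of the PRL-1 line from that of the vector line, so that a positive value is more transcript with PRL-1. SE is the standard error.

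The sequences before the annotated starts of these genes are shown because 3 of them, ACTR2, ACTR3 and CDC42, were higher in HEK293-PRL-1 relative to both 18S and GAPDH. They come from RefSeq, build GRCh38.p14, plus strand, and end before the most upstream start listed for each gene. Matches to 6 textbook motifs are in capitals: TGACGTCA (the cAMP response element), CCGGAAG (an ETS core), GGGCGG (a GC box), CCAAT (the CCAAT box), TATAAA (the TATA box) and the CArG box, each searched on both strands of the 250 bases before the start. For ACTR2 the 250 bases at chr2:65227581-65227830 are given, for ACTR3 the 250 bases at chr2:113889684-113889933, and for CDC42 a stretch of 60 bases at chr1:22052638-22052697 around its match to TGACGTCA.
ACTR2: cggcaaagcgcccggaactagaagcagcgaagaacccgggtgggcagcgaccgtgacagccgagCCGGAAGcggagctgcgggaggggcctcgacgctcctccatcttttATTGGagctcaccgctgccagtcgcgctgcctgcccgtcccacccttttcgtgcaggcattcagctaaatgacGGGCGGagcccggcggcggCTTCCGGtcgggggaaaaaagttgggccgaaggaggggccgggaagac
ACTR3: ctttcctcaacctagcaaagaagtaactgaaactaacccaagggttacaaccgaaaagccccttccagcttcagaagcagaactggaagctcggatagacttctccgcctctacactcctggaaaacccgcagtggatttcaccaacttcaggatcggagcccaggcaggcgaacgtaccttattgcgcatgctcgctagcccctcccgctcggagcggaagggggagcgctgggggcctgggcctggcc
CDC42: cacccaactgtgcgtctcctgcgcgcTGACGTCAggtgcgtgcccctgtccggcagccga

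ACTR2 held 2 matches to CCGGAAG or its reverse complement, one from 186 to 180 and one from 48 to 42 bases before the start, beside 1 GC box and 1 CCAAT box. ACTR3 held none of the 6 motifs in this window, although 2 further starts are listed for it downstream. CDC42 held TGACGTCA from 45 to 38 bases before the start and 2 GC boxes further upstream, outside the stretch shown. PAK3, with 3 listed starts, held 1 GC box and 1 CCAAT box before the first. Of 35116 promoter windows of this length in the same table, CCGGAAG was in 8.52%, TGACGTCA in 1.65%, GGGCGG in 42.6%, CCAAT in 32.0%, TATAAA in 10.7% and the CArG box in 1.16%. These matches describe the letters only.

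The assay of PTP4A1 itself was at the limit of 40 cycles in all 4 samples, so that the overexpression is not checked by these values. The panel holds no gene that defines HEK293. Of 4 markers of other cell types, the endothelial genes SELE and VCAM1 were at 40 in every sample, PECAM1 was at 40 in both HEK293-vector samples and at 38.5 and 38.7 in HEK293-PRL-1, and the leukocyte gene ITGB2 lay between 37.5 and 40. The reference wells moved with the groups to different degrees. Mean raw Ct from HEK293-vector to HEK293-PRL-1 went from 13.9 to 14.1 cycles for 18S, from 21.3 to 20.9 for GAPDH and from 28.2 to 26.0 for B2M, so that relative to 18S GAPDH was higher by 0.55 and B2M by 2.38 on the log2 scale. The part of the references in the results below was not tested. Each result is therefore given against more than 1 of them.

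ACTR2 and ACTR3 rose most of the 4 genes. The Arp2 gene ACTR2 (assay Hs00855199_g1) crossed the threshold at 33.6 and 33.1 cycles in HEK293-vector samples a and b, and at 29.8 and 29.5 cycles in the PRL-1 samples. Both HEK293-PRL-1 samples were below both HEK293-vector samples, with a gap in ΔCt of 3.35 cycles between the nearest samples of the groups. The mean ΔCt was 19.4 ± 0.481 for the vector line (SD, n = 2) against 15.5 ± 0.214 for the PRL-1 line (SD, n = 2). This was 14.4-fold more transcript relative to 18S, with a 95% interval from 7.93 to 26.1. On the log2 scale ACTR2 rose by 3.85 (SE 0.32, adjusted p = 0.00146, limma, Benjamini-Hochberg over 174 assays).

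The Arp3 gene ACTR3 (assay Hs00828586_m1) gave raw Ct values of 31.6 and 31.2 without PRL-1 and of 28.1 and 27.8 with it. Here too the groups did not overlap, and the gap between their nearest samples was 3.25 cycles of ΔCt. The mean ΔCt was 17.5 ± 0.403 for the vector line (SD, n = 2) against 13.8 ± 0.169 for the PRL-1 line (SD, n = 2), which is 12.6-fold more in HEK293-PRL-1 with a 95% interval from 7.35 to 21.5. ACTR3 thus rose by 3.65 on the log2 scale (SE 0.29, limma adjusted p = 0.00146). In both genes sample a had the higher Ct in each group, by 0.56 and 0.37 cycles for ACTR2 and by 0.45 and 0.31 cycles for ACTR3 in HEK293-vector and HEK293-PRL-1.

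CDC42 (assay Hs00854939_g1), the GTPase upstream of N-WASP and the PAK kinases, also rose relative to 18S, by less than the Arp2/3 genes. Its raw Ct values were 32.5 and 31.9 in HEK293-vector and 30.0 and 29.8 in HEK293-PRL-1. The groups were separate, with HEK293-vector sample a the lowest in template and a gap of 2.04 cycles of ΔCt between the groups. The mean ΔCt was 18.3 ± 0.545 for the vector line (SD, n = 2) against 15.8 ± 0.106 for the PRL-1 line (SD, n = 2). This was 5.67-fold more in HEK293-PRL-1, with a 95% interval from 3.06 to 10.5 (2.50 on the log2 scale, SE 0.33, limma adjusted p = 0.00311). With the variance of each assay alone, where 24.1% of the tested assays were called higher and 5.17% lower, CDC42 did not pass (adjusted p = 0.0596), while ACTR2 and ACTR3 did (adjusted p = 0.0468 for each).

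PAK3 (assay Hs00176828_m1) was close to the limit of detection. Raw Ct values were 39.6 and 39.9 in HEK293-vector and 38.7 and 37.0 in HEK293-PRL-1, so that both HEK293-vector samples lay within 0.4 cycles of the limit. The groups did not overlap, but the HEK293-PRL-1 samples differed from each other by 1.79 cycles, and 1 of the 165 assays detected in every sample had a larger difference in that group. The mean ΔCt was 25.8 ± 0.0945 for the vector line (SD, n = 2) against 23.7 ± 1.22 for the PRL-1 line (SD, n = 2). A rise of 2.09 on the log2 scale (SE 0.61, limma adjusted p = 0.0357) stood for 4.25-fold more, with a 95% interval from 1.37 to 13.2. The PAK3 call rested on HEK293-PRL-1 sample b: without it the log2 fold change was 1.23 (adjusted p = 0.0712), and without sample a it was 2.95 (adjusted p = 0.0109). On its own variance PAK3 had an adjusted p of 0.180.

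**Figure D1:**
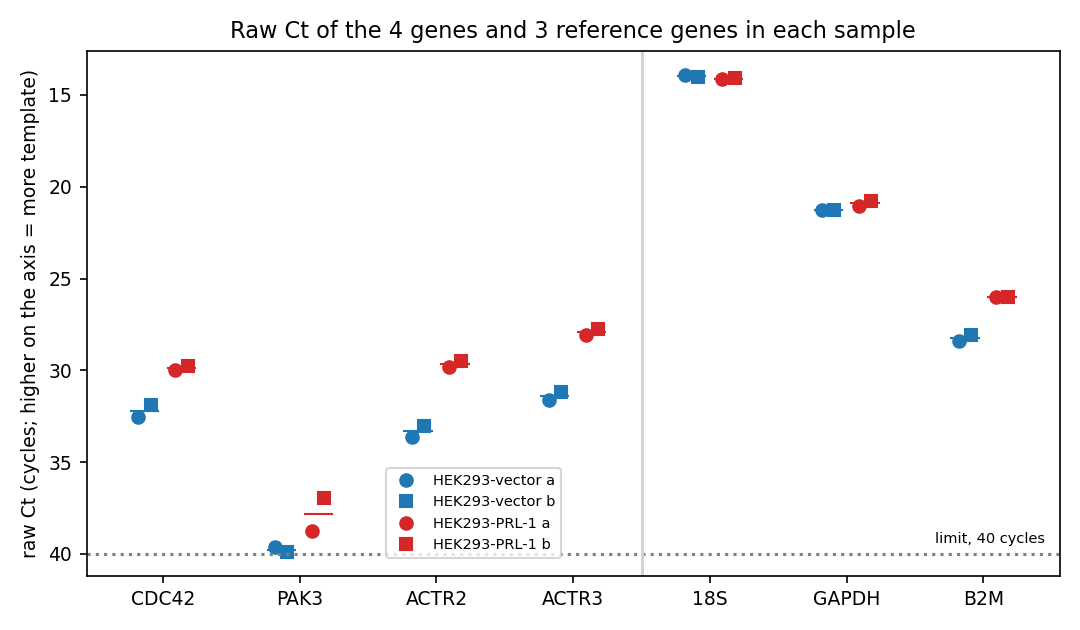
Raw Ct in cycles (vertical axis, inverted so that more template is higher) of the 4 genes and of the mean of the 2 wells of 18S, GAPDH and B2M, with circles for sample a, squares for sample b and short lines for the group means (n = 2). The HEK293-PRL-1 samples lie above the HEK293-vector samples for each of the 4 genes, PAK3 lies next to the limit of 40 cycles, and B2M also moved, from 28.2 to 26.0.

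With 18S, all 4 genes were thus called higher in HEK293-PRL-1, where 58.6% of the 174 tested assays were called higher and 7.47% lower. The groups were without overlap in the higher direction in all 4, and in 69.0% of the panel, with 14.4% without overlap in the lower direction. With the letters a and b as a block all 4 were called too, where 59.8% of assays were called higher. Beside such a share of the panel, the count of 4 is not a result particular to these genes. The median log2 fold change of the 4 was 3.08, and that of the 174 assays was 1.34. By size, 17 assays had a larger log2 fold change than ACTR2, 21 a larger one than ACTR3, 57 than CDC42 and 68 than PAK3. An RNA preparation from a whole culture cannot tell more transcript in each cell from more cells with the transcript. With 2 samples per group an exact permutation test cannot go below p = 0.333, and the limma p-values rest on a variance shared between assays.

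**Figure D2:**
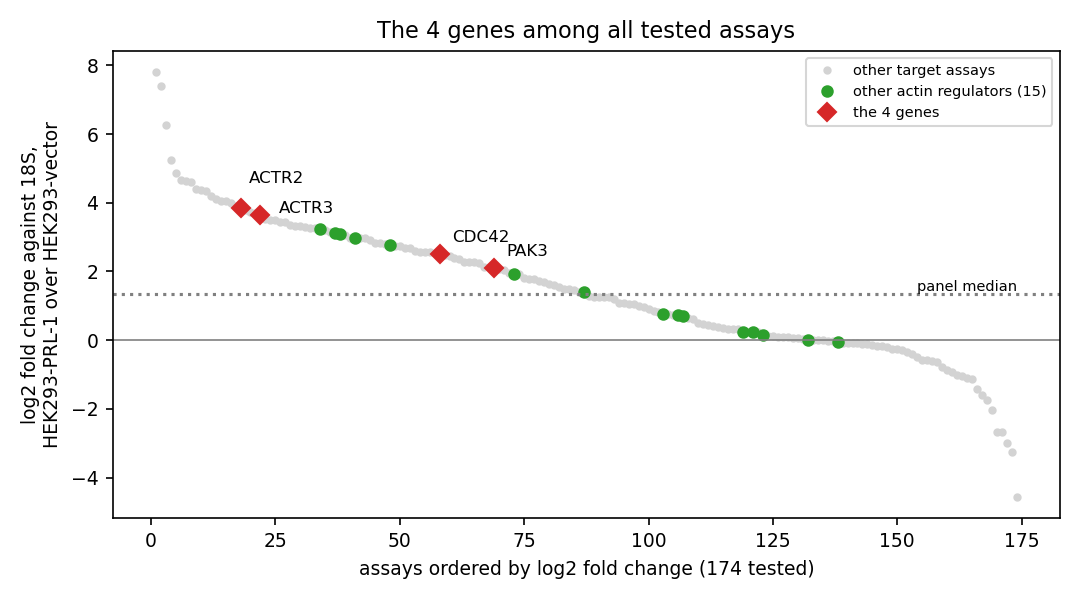
Log2 fold change relative to 18S of the 174 tested assays (vertical axis) in descending order (horizontal axis), with the 4 genes as red diamonds, 15 other actin regulators as green circles and the panel median of 1.34 as a dotted line. ACTR2 and ACTR3 stand near the upper end at 3.85 and 3.65, and CDC42 and PAK3 at 2.50 and 2.09, all above the median.

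A change of reference shifts every gene by the same amount and so leaves their order, but it decided which of them were called. Against GAPDH, the glycolytic enzyme, the log2 fold change was 3.29 for ACTR2 (adjusted p = 0.0012), 3.10 for ACTR3 (adjusted p = 0.00111) and 1.95 for CDC42 (adjusted p = 0.0045, limma), where 49.4% of assays were called higher. PAK3 was at 1.54 and did not pass (adjusted p = 0.0599). Against B2M, a component of MHC class I, 12.6% of assays were called higher. ACTR2 was at 1.47 (adjusted p = 0.0113) and ACTR3 at 1.27 (adjusted p = 0.0284). CDC42 was at 0.12 with a 95% interval from -0.92 to 1.17, and PAK3 at -0.29 with an interval from -1.33 to 0.75, so that neither was called. With B2M limma gave every assay the same SE, 0.53, on 348 degrees of freedom, which treats the assays as independent although any error in the B2M wells of the 4 samples enters each of them. These p-values and intervals are therefore too small and too narrow. An error in the wells of 18S or GAPDH likewise enters every assay, where limma used 4.46 and 4.35 degrees of freedom. Its effect on those p-values was not tested.

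Against the panel median, the median Ct in each sample of the 165 assays below 40 in all of them, 25.9% of assays were called higher and 51.7% lower. The median log2 fold change of the 174 assays was -0.847 with it, so that this reference did not centre the changes of the panel. A value near 0 here is thus not a change like that of the typical assay. ACTR2 was at 1.66 (SE 0.16, adjusted p = 0.00168) and ACTR3 at 1.47 (SE 0.15, adjusted p = 0.0017, limma). CDC42 was at 0.32 (95% interval from -0.13 to 0.76, adjusted p = 0.138) and PAK3 at -0.098 (95% interval from -1.69 to 1.49). With no reference at all, from raw Ct at equal RNA input, the differences were 3.67 for ACTR2, 3.48 for ACTR3, 2.33 for CDC42 and 1.92 for PAK3, and all 4 passed where 54.6% of assays were called higher and 9.77% lower. ACTR2 and ACTR3 were above 0 under each of these references and called higher, with the limit given for B2M, and CDC42 and PAK3 were called under some of them.

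**Figure D3:**
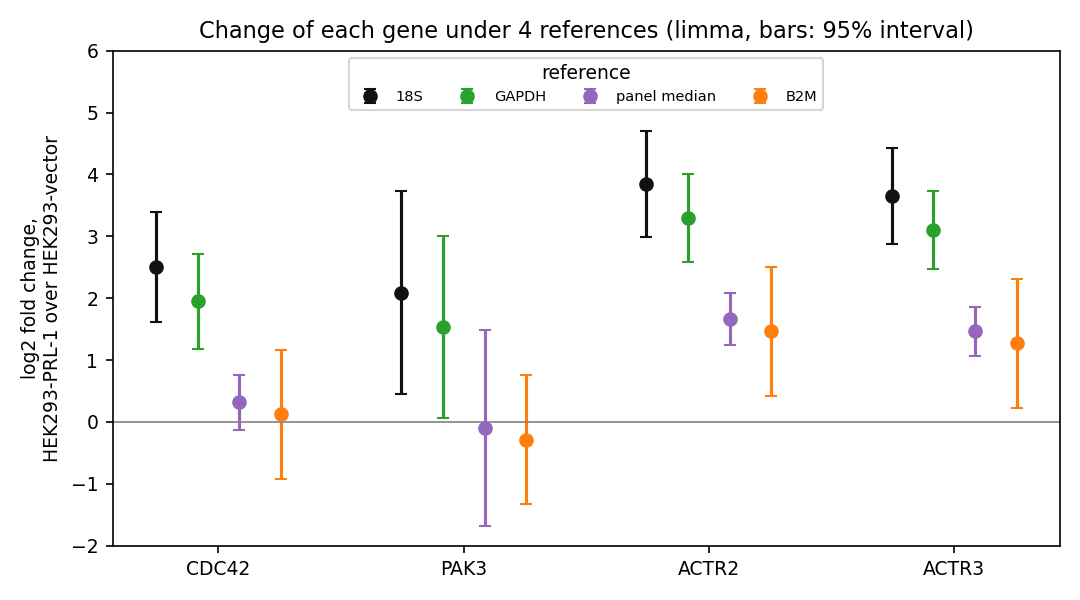
Log2 fold change of HEK293-PRL-1 over HEK293-vector (vertical axis) for each of the 4 genes against 18S, GAPDH, the panel median and B2M, with the 95% interval from limma as bars (n = 2 per group). The intervals of ACTR2 and ACTR3 stay above 0 throughout, and those of CDC42 and PAK3 include 0 with the panel median and with B2M.

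The ratio of ACTR2 to ACTR3 within a sample needs no reference gene. The raw Ct of ACTR3 minus that of ACTR2 was -1.99 and -1.88 cycles in HEK293-vector and -1.77 and -1.71 cycles in HEK293-PRL-1. As ratios of signal, these were 0.252 and 0.272 in HEK293-vector and 0.293 and 0.306 in HEK293-PRL-1. Since the assays can differ in efficiency, such a ratio is not a ratio of molecules, and only its change between samples is read here. Both ratios with PRL-1 were higher than both without it, by 0.19 on the log2 scale between the means, or 1.14-fold. The means were -1.93 ± 0.0783 in the vector line and -1.74 ± 0.0443 in the PRL-1 line (SD, n = 2). The exact two-sided permutation test gave p = 0.333, the smallest it can give. With ACTR3 as the reference in limma the difference did not pass (SE 0.14, adjusted p = 0.268), and its 95% interval from -0.21 to 0.59 included 0.

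CDC42 was lower relative to ACTR3 in HEK293-PRL-1. The log2 ratio of ACTR3 to CDC42 was 0.91 and 0.71 in HEK293-vector and 1.91 and 2.00 in HEK293-PRL-1. The groups did not overlap, and the ratio was 2.22-fold higher with PRL-1. With ACTR3 as the reference, CDC42 was lower in HEK293-PRL-1 by a log2 value of -1.15 (SE 0.16, limma adjusted p = 0.00284, 95% interval from -1.58 to -0.72), where 79.8% of 173 assays were called lower and 4.62% higher. The ratio of ACTR2 to CDC42 behaved alike, at -1.08 and -1.17 in HEK293-vector and 0.14 and 0.29 in HEK293-PRL-1. These ratios share their CDC42 and Arp2/3 wells and are not separate evidence.

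For PAK3, the log2 ratio of CDC42 to PAK3 was 7.10 and 8.01 in HEK293-vector and 8.76 and 7.18 in HEK293-PRL-1, so that the groups overlapped. With ACTR3 as the reference PAK3 was at -1.56, which did not pass (adjusted p = 0.0658 from limma, 95% interval from -3.19 to 0.063). No pair of the 4 genes had a p below 0.333 in the exact permutation test, the smallest that test can give.

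**Figure D4:**
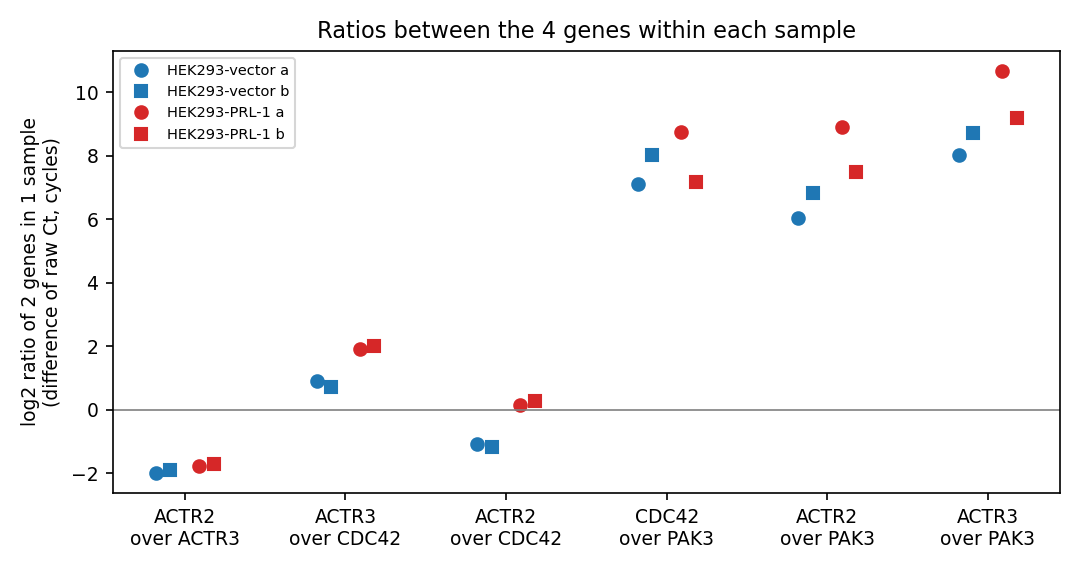
Log2 ratio of 2 genes within 1 sample, as the difference of their raw Ct (vertical axis), for the 6 pairs (horizontal axis), with circles for sample a and squares for sample b, blue for HEK293-vector and red for HEK293-PRL-1. ACTR2 over ACTR3 differs by 0.19 between the group means, ACTR3 over CDC42 by 1.15, and CDC42 over PAK3 overlaps between the groups.

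The largest single differences between samples of a group were among assays near the limit of detection. The median difference in HEK293-vector was not largest there. Over the 165 assays detected in every sample, the median absolute difference of raw Ct between samples a and b was 0.0418 cycles in HEK293-vector and 0.237 in HEK293-PRL-1 for the 5 assays with a mean Ct under 25. It was 0.282 cycles in HEK293-vector and 0.318 in HEK293-PRL-1 for the 60 assays with a mean Ct of 25 to 30, and 0.438 and 0.336 for the 81 assays of 30 to 35. ACTR3 belonged to the set of 25 to 30, and CDC42 and ACTR2 to the set of 30 to 35. The 19 assays of 35 to 40, with PAK3 among them, had medians of 0.383 and 0.373 and reached 2.02 and 2.35 cycles. Those of 30 to 35 reached 1.95 cycles in HEK293-vector and 1.34 in HEK293-PRL-1. Sample a had the higher raw Ct in 119 of the 165 assays in HEK293-vector, with a median difference of 0.29 cycles, and in 155 in HEK293-PRL-1, with a median of 0.32. In HEK293-PRL-1 all 4 genes differed in this direction, by 0.37 cycles for ACTR2, 0.31 for ACTR3, 0.22 for CDC42 and 1.79 for PAK3. CDC42 and ACTR2 are measured by assays whose ID ends in _g1, a suffix for primers and probe that may also amplify genomic DNA, while ACTR3 and PAK3 have _m1 assays across an exon junction. By suffix, 2 of 5 tested _g1 assays, 3 of 5 _s1 assays and 97 of 164 _m1 assays were called higher, beside 58.6% of the panel. ARHGDIA, a _g1 assay that was not called, was at 0.012. Its raw Ct values, from 23.5 to 23.9, were far lower than those of ACTR2 and CDC42. A part of genomic DNA in the signals was not tested.

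**Figure D5:**
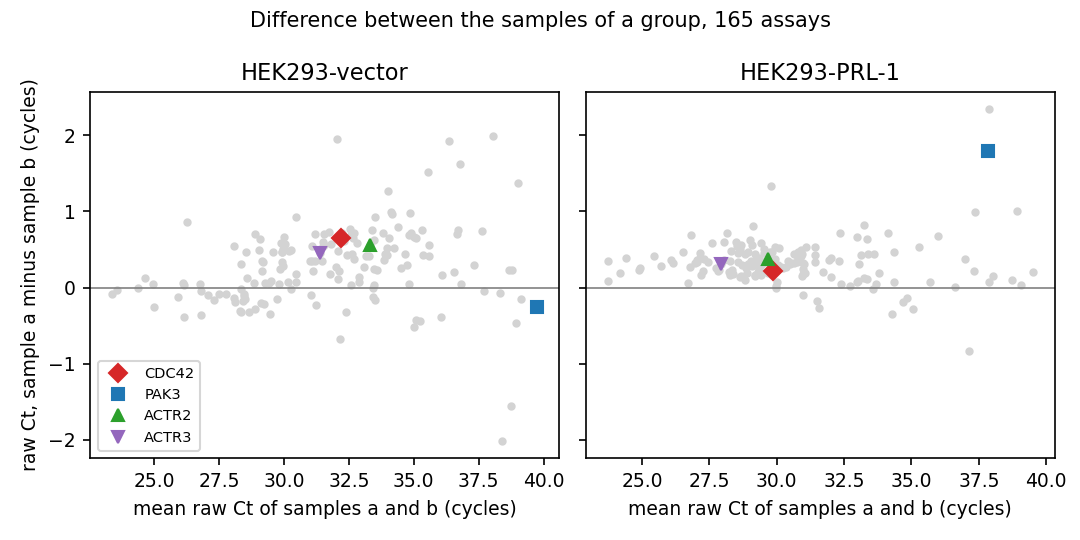
Raw Ct of sample a minus that of sample b (vertical axis, cycles) against their mean (horizontal axis, cycles) in HEK293-vector (left) and HEK293-PRL-1 (right) for 165 assays, with the 4 genes as coloured symbols and the rest in grey. PAK3 lies at -0.25 in HEK293-vector and at 1.79 in HEK293-PRL-1, and the other 3 genes between 0.22 and 0.65.

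Of 15 other genes of the panel that act with CDC42 on actin, 8 rose relative to 18S, 0 fell and 7 did not pass, with a median log2 fold change of 0.77 against 1.34 for the panel. The share called higher in the panel was 58.6%. The genes called were the less abundant ones. In HEK293-vector the 8 had mean raw Ct values from 29.9 (DIAPH1) to 34.8 (NCK1), and the 7 from 23.6 (ARHGDIA) to 30.0 (RAC1). The part of abundance in the contrasts between these genes was not tested. Among the nucleation promoting factors that switch on the Arp2/3 complex, WASL, which encodes N-WASP, went from raw Ct values of 34.0 and 33.7 to 31.2 and 30.7 in HEK293-PRL-1 and rose by 3.12 (SE 0.30, adjusted p = 0.00163, limma). WASF1, which encodes WAVE1, rose by 1.94 (adjusted p = 0.00757). WASF2, which encodes WAVE2, was at -0.052 (SE 0.23, adjusted p = 0.865), with overlapping groups. The formin gene DIAPH1, whose product makes unbranched filaments, rose by 1.39 (adjusted p = 0.0138).

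Among the other PAK kinases, PAK2 went from raw Ct values of 34.0 and 33.1 to 31.1 and 30.7 and rose by 2.76 relative to 18S (SE 0.42, adjusted p = 0.00464, limma), with groups that did not overlap. PAK1 rose by 0.77 (SE 0.25, adjusted p = 0.0479), a call that was lost with GAPDH (0.21, adjusted p = 0.338), on its own variance (adjusted p = 0.106) and without HEK293-vector sample a or either HEK293-PRL-1 sample. PAK4, of group II, had raw Ct values between 28.2 and 28.5 in all 4 samples and was at 0.25 (SE 0.21, adjusted p = 0.362). Whether the PAK genes differ from each other in their change was not tested.

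Of the 3 small GTPases on this list, none passed. RAC1 was at 0.72 relative to 18S (SE 0.26, adjusted p = 0.0616, limma), RHOA at 0.24 (adjusted p = 0.392) and RHOC at 0.14 (adjusted p = 0.735). ARHGDIA, which encodes a GDP dissociation inhibitor, was at 0.012 with overlapping groups (SE 0.23, adjusted p = 0.984). Among the adaptors upstream, NCK1, which links receptors to N-WASP and PAK kinases, rose by 3.25 (SE 0.22, adjusted p = 0.00117) and CRK by 3.09 (adjusted p = 0.00146). DOCK1, a Rac exchange factor, rose by 2.99 (adjusted p = 0.00292), and the scaffold BCAR1 was at 0.70 (adjusted p = 0.0552).

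The counts of these 15 genes moved with the reference. With GAPDH 7 were called higher and 2 lower, where the panel had 49.4% and 21.8%. With B2M 0 were called higher and 8 lower, beside 12.6% and 47.1% of the panel. With the panel median 4 were called higher, namely WASL, NCK1, CRK and DOCK1, and 9 lower, beside 25.9% and 51.7%. RHOA, RHOC, RAC1, ARHGDIA, PAK1, PAK4, WASF2, DIAPH1 and BCAR1 were the 9 called lower there. On their own variance 3 of the 15 passed, beside 24.1% of the panel.

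The genes whose raw Ct moved most like each of the 4 were found over the 4 samples by the root mean square difference of the deviations from each gene's own mean, among 161 other assays detected in every sample. NRAS, a Ras GTPase, was nearest to both ACTR2 (0.0639 cycles) and ACTR3 (0.0563 cycles), followed for both by ROCK1, a kinase that acts on actomyosin contraction (0.0731 and 0.0687). The third was SOS1 for ACTR2 (0.119) and TAB2 for ACTR3 (0.124). ACTR2 and ACTR3 were 0.106 cycles from each other. The median distance of all 161 assays was 1.32 from ACTR2 and 1.22 from ACTR3. CDC42 was nearest to FLT1 (0.0792), RIPK1 (0.0882) and ITGA2 (0.0957), and it was 0.674 from ACTR2 and 0.580 from ACTR3. PAK3 had no assay closer than 0.508 cycles, the distance to MAPK10, followed by PPM1E (0.511) and GRLF1 (0.512). These distances describe 4 samples, within each of which all assays share 1 RNA and its plates, and they carry no test.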

How the data were processed

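What the authors deposited is a score in cycles, the raw Ct per well, not normalized and capped at 40. Per the labels, RNA was reverse transcribed and amplified with TaqMan assays over 40 cycles, and Partek 6.12.0531 is listed in the submitters' processing notes. The authors also deposited fold changes of their own comparison, which were not used. Groups came from the labels. The column names give the group, with letters and digits that were not tied to the labelled replicates.

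ΔCt was computed with the mean of the 2 wells of 18S of the sample. Log2 fold changes were fitted with lmFit and eBayes (limma 3.58.1, R 4.3.3) over the 174 of 184 target assays below 40 in at least 1 sample, with p-values adjusted by Benjamini-Hochberg at a threshold of 0.05. A doubling per cycle was assumed. The fit was tested on simulated data with independent noise in each assay. The simulation had no error shared through a reference and no limit of 40 cycles, so that it does not cover these. A Ct has no read depth, and the number of samples limits the precision. Alternatives were other references, sets of assays, variance estimates, an efficiency of 1.9 per cycle, a replicate block and each sample left out. The raw Ct without reference was added after seeing the data. Named genes were the 4 genes, 15 actin regulators chosen by role, 3 reference genes, PTP4A1, markers of other cell types, and the 3 assays most like each of the 4. The genes and lists were chosen with earlier results of these data known. Another reference gene is not reported here. Promoter sequences were matched by symbol, for all 4 genes. Python 3.11.15, pandas 2.3.3, scipy 1.17.1 and matplotlib 3.10.9 were used.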

Additional observations from a re-analysis of the deposited data

How the results depend on the processing

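ACTR2 and ACTR3 kept their direction and their call under every alternative run, the call with B2M resting on p-values that are too small, with log2 fold changes from 1.47 to 4.19 and from 1.27 to 3.94. Relative to 18S with each sample left out in turn, where the lone sample of a group was assumed to vary like the other group, ACTR2 ranged from 3.51 to 4.19, ACTR3 from 3.37 to 3.94, CDC42 from 2.12 to 2.89 and PAK3 from 1.23 to 2.95. CDC42 lost its call with B2M (0.12), the panel median (0.32) and its own variance (2.50). PAK3 lost it with GAPDH (1.54) and its own variance (2.09), and its direction turned with B2M (-0.29) and the panel median (-0.098). PAK3 was outside the set of assays under a Ct of 35. Without single samples, the difference between ACTR2 and ACTR3 lay from 0.14 to 0.25. An efficiency of 1.9 per cycle scaled the effects and their SE alike and kept the p-values, so that it could change no call.

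Of the 15 other actin regulators, 8 were called higher and 0 lower relative to 18S. These counts were 7 and 2 with GAPDH, 0 and 8 with B2M, 4 and 9 with the panel median, 3 and 0 on the own variance, and between 5 and 10 higher and 0 lower with each sample left out, the lowest without HEK293-PRL-1 sample b. The tested assays called higher in the panel with a sample left out numbered 74 of 174 without HEK293-PRL-1 sample b, 83 without its sample a, and 101 and 108 without HEK293-vector sample a or b. With B2M the direction turned for RAC1 (-1.66), RHOA (-2.14), RHOC (-2.24), PAK1 (-1.61), PAK4 (-2.13), WASF1 (-0.44), DIAPH1 (-0.99), ARHGDIA (-2.37) and BCAR1 (-1.68). With the panel median it turned for RAC1 (-1.46), RHOA (-1.95), RHOC (-2.05), PAK1 (-1.42), PAK4 (-1.94), WASF1 (-0.25), DIAPH1 (-0.79), ARHGDIA (-2.18) and BCAR1 (-1.48). With GAPDH it turned for RHOA (-0.31), RHOC (-0.42), PAK4 (-0.30) and ARHGDIA (-0.54), and with raw Ct for RHOC (-0.034) and ARHGDIA (-0.16). With a sample left out RHOC ranged from -0.13 to 0.40, WASF2 from -0.19 to 0.086 and ARHGDIA from -0.13 to 0.15. The cause was not tested beyond the shift of the reference itself.

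Both groups carry replicate numbers in the labels. The column names hold the letters a and b, digits and, except for HEK293-PRL-1 sample a, a letter D. The sources used here do not say what these stand for or which replicate they mark. The differences between samples a and b of the 2 groups had a Pearson correlation of 0.038 across the 165 assays detected in every sample, which are not independent. A correlation does not register an offset shared by all assays. Sample a had the higher raw Ct in 119 of these assays in HEK293-vector and in 155 in HEK293-PRL-1. Whether the letters pair samples was therefore not decided, and the main fit left them out. A fit with the letters as a replicate block called all 4 genes higher (adjusted p from 0.0019 for ACTR2 and ACTR3 to 0.0446 for PAK3, limma) and 10 of the 15 others, RAC1 and BCAR1 among them. With this block the difference between ACTR2 and ACTR3 had an adjusted p of 0.331.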
